A study of Homo sapiens with 12 samples.

Results

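The comparison of SH-SY5Y cells given oligomeric amyloid-β (Aβ) with their own controls at 6 h comprised 6 of the 12 arrays of the series, 3 in each group. The members were chosen by their treatment labels. The treated group is labelled as oligomeric Aβ with a 6 h incubation, and the other group as the control of 6 h. The remaining 6 arrays are fibrillar Aβ with a 24 h incubation and its control, 3 arrays each. All groups were SH-SY5Y cells in the same culture medium. This established line comes from a human neuroblastoma, a tumour of the sympathetic lineage, and serves as a dividing stand-in for neurons. Peptide form and hours change together across the series. It is not stated whether the hours refer to the preparation of the peptide or to its time on the cells, and its dose and length were not given in the sources used here. Whether replicates were separate cultures is not stated either, and p-values then reflect only the variation among these arrays, which may be technical.

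Aβ is a peptide cut from the amyloid precursor protein APP, first by the β-secretase BACE1 and then by the γ-secretase complex. It assembles into soluble oligomers and, further, into the fibrils found in the plaques of Alzheimer's disease. In cultured neurons oligomers are known for binding to membranes and receptors, disturbing calcium, raising oxidative stress and altering tau, the microtubule protein encoded by MAPT. SH-SY5Y cells carry the noradrenergic programme of the sympathetic lineage, which includes enzymes of catecholamine synthesis. The peptide itself was added to the cells, so no transcript on the array checks whether it was present.

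Values are log2 signals of Affymetrix probe sets, each a group of short probes for a transcript. Each gene was read from its brightest probe set with a mean at or above log2 3.78 (a signal of 13.7), which left 11805 genes. A difference is the mean of the oligomeric arrays less the mean of the controls on the log2 scale, so that 1 is a 2-fold change. Levels of different genes are not comparable on this scale. For arrays, their number limits the precision.

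No gene passed the test. With limma, a linear model that shares information on spread across genes, 0 of 11805 genes had a Benjamini-Hochberg adjusted p under 0.05 (0% called), the lowest adjusted p was 0.211, for SLC35H1 and SETD1B, and that of every other gene was at least 0.999988. An unadjusted p under 0.05 was reached by 337 genes (2.85%), 149 with the higher mean with oligomers (1.26%) and 188 with the lower (1.59%). With no true difference in any gene, about 590 would be expected at this threshold by chance. The 3 oligomeric arrays did not overlap the 3 controls for 870 genes (7.37%), 425 higher (3.6%) and 445 lower (3.77%). The median difference over all genes was −0.0042, and from the 1st to the 99th percentile the differences ran from −0.57 to 0.64.

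The arrays bounded the possible changes closely for well-measured genes and loosely for dim ones. The 95% confidence interval lay wholly within a 2-fold change for 10910 genes (92.4%) and within a 1.5-fold change for 8662 (73.4%). Among the 8577 genes with a mean level at or above log2 6 the shares were 99.8% and 94.5%, with a median standard error (SE) of 0.11. Below log2 6 the median SE was 0.28 and 72.7% of the intervals lay within 2-fold. A measured difference of 2-fold or more was found for 45 genes, 28 higher and 17 lower, and 0 of them had a mean level at or above log2 6. In 35 of these 45, 1 group mean lay below the filter level of log2 3.78, so that the gene passed the filter through its other group and its difference has no firm size. The groups of 19 of the 45 did not overlap. The largest difference among the 1168 genes at or above log2 10 was the 0.38 of DBH.

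**Figure D1:**
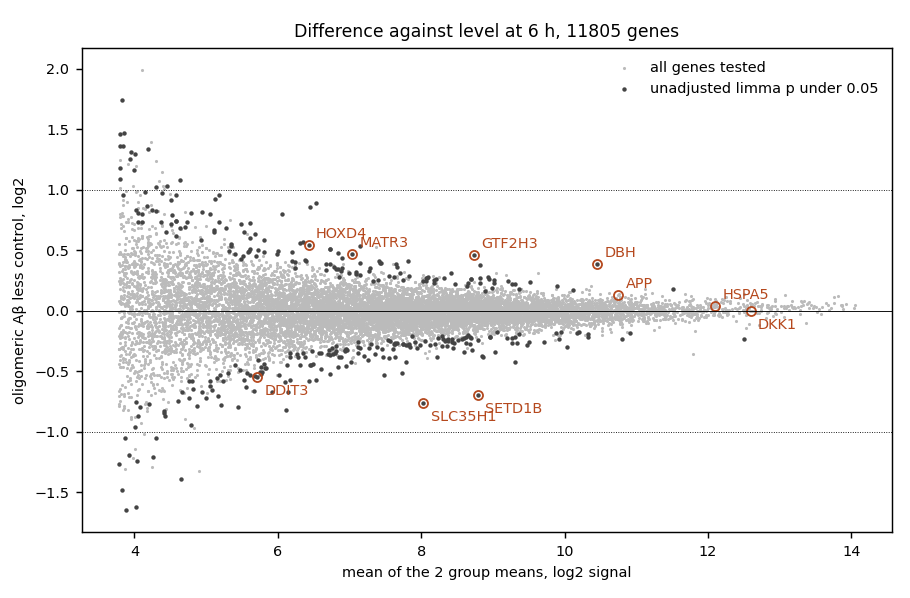
Difference of oligomeric Aβ less control at 6 h (vertical axis, log2) against the mean of the group means (horizontal axis, log2 signal). Each point is 1 of 11805 genes, dark points have an unadjusted limma p under 0.05, and dotted lines mark 2-fold; the points spread widely at low levels and close to 0 at high levels, with SLC35H1 and SETD1B below the cloud at a level near log2 8 to 9.

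SLC35H1, by its symbol a member of the SLC35 family of solute carriers, and SETD1B, a histone H3 lysine methyltransferase that acts on active genes, had the lowest p, both with a limma adjusted p of 0.211. The log2 signals of SLC35H1 were 7.41, 7.83 and 7.72 with oligomers and 8.44, 8.39 and 8.40 in the controls. All 3 oligomeric arrays lay below all 3 controls, with replicate 1 the lowest. The difference was −0.76 (SE 0.11, 95% interval −1.01 to −0.51), a signal 1.69-fold lower. The other 2 probe sets of SLC35H1 above the filter had differences of 0.03 and −0.34, with SEs of 0.28 and 0.37 at lower signals, and averaging the probe sets gave −0.36.

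SETD1B measured 8.57, 8.19 and 8.56 with oligomers and 9.23, 9.15 and 9.02 in the controls. The groups did not overlap, and replicate 2 was the lowest of the oligomeric arrays. The difference was −0.69 (SE 0.11, 95% interval −0.93 to −0.45), or 1.61-fold lower. SETD1B was read from its single probe set above the filter. Among the 45 chromatin methyltransferases and demethylases tested, SETD1B and KMT5A were the 2 with an unadjusted p under 0.05, beside 2.85% of all genes. KMT5A, a histone H4 lysine methyltransferase, had the higher mean with oligomers (0.29, 95% interval 0.01 to 0.57), with overlapping groups. Its other probe sets above the filter differed by 0.17, 0.10 and 0.02. The median over the 45 genes was −0.002. Both SLC35H1 and SETD1B passed when each array was centred on its median (limma adjusted p = 0.0408 for both), and 0 genes did under any other setting run.

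DBH encodes dopamine β-hydroxylase, the enzyme that makes noradrenaline from dopamine. Its signals were 10.61, 10.67 and 10.66 with oligomers and 10.09, 10.38 and 10.31 in the controls. The oligomeric arrays lay within 0.06 of each other and above every control, and control replicate 1 was the lowest. The difference was 0.38 (SE 0.08, 95% interval 0.20 to 0.56), a signal 1.31-fold higher. At 24 h the DBH difference of fibrillar arrays from their controls was −0.06.

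HOXD4, a homeobox transcription factor of body axis patterning, measured 6.74, 6.65 and 6.71 against 6.15, 6.14 and 6.19 in the controls. Both groups were tight and did not overlap. The difference was 0.54 (SE 0.14, 95% interval 0.25 to 0.84). HOXC6, the brightest HOX gene of the 13 tested, had the lower mean (−0.26, 95% interval −0.51 to −0.01), and the median of the HOX genes was −0.01.

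The other genes with the lowest p and a higher mean with oligomers served varied functions. GTF2H3, a subunit of the transcription and repair factor TFIIH, measured 9.10, 8.87 and 8.92 against 8.40, 8.52 and 8.58, a difference of 0.46 (SE 0.09). Its second probe set differed by −0.01. MATR3, a nuclear matrix RNA-binding protein, measured 7.23, 7.26 and 7.32 against 6.72, 6.90 and 6.79 (0.47, SE 0.12). XRCC2, a protein of recombination repair, differed by 0.41 (SE 0.12), and TRMT2B, a methyltransferase of mitochondrial RNA, by 0.72 (SE 0.19). FGFR1, a fibroblast growth factor receptor, differed by 0.42 (SE 0.11) in its brightest probe set. In its other 6 probe sets the differences ran from −0.08 to 0.68. AVIL, which encodes the actin-binding protein advillin, differed by 1.08 (SE 0.28) at levels under log2 6. The control means of ABCB9, a lysosomal peptide transporter, and ZNF324, a zinc finger gene, lay below the filter level, and both passed the filter through their oligomeric arrays, so no size is given. ABCB9 measured 4.51, 4.67 and 4.54 against 3.71, 3.12 and 3.12, and ZNF324 4.43, 4.50 and 5.19 against 2.12, 2.84 and 3.92.

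Of these 12 genes with a higher mean, 4 were read from probe sets with the suffix _x_at, whose probes can also bind related sequences. They were GTF2H3, AVIL, FGFR1 and XRCC2. Of all 11805 genes, 744 (6.30%) were read from such probe sets. Among the 149 genes with a higher mean and an unadjusted p under 0.05, 21 were (14.1%), and among the 188 with a lower mean 14 (7.45%). The part of cross-binding in these differences was not tested.

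The genes with the lowest p and a lower mean, besides SLC35H1 and SETD1B, were read from their brightest probe sets. They were WDR35, a subunit of the transport machinery in cilia (−0.38, SE 0.08), LRRC8A, the core of the volume-regulated anion channel (−0.42, SE 0.11), and CHST12, a chondroitin sulphotransferase (−0.51, SE 0.13). Further members were the ephrin ligand EFNA2 (−0.43, SE 0.12), the tropomyosin TPM4 (−0.37, SE 0.10) and the phospholipid flippase ATP11B (−0.28, SE 0.08). The list closed with SUPT7L, a subunit of a histone acetyltransferase complex (−0.32), TXNDC12, a thioredoxin-like protein of the endoplasmic reticulum (−0.30), NOC4L, a ribosome assembly factor (−0.58), and YPEL1 (−0.67). Their groups did not overlap, as the plot of single arrays shows. Averaging the probe sets of a gene gave smaller differences for several of them. The difference became −0.04 for SUPT7L, −0.16 for YPEL1 and TPM4, −0.13 for LRRC8A, −0.11 for ATP11B, −0.21 for WDR35 and −0.31 for CHST12.

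**Figure D2:**
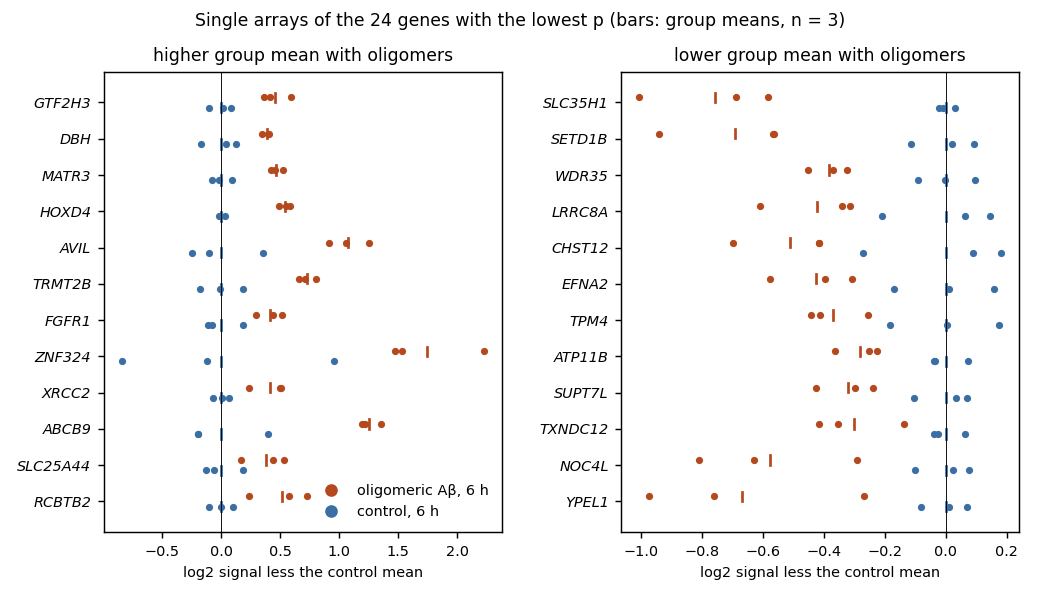
Log2 signal of each array less the mean of the 3 controls (horizontal axis) for the 12 genes with the lowest p in each direction; orange points are oligomeric arrays, blue points controls, and bars the group means. The groups overlap for SLC25A44 and for none of the other 23; the oligomeric points of SLC35H1 lie at least 0.58 below its control mean.

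Among genes with a level of at least log2 6 in the higher group and groups that did not overlap, the differences were largest for NXPE3 (0.85, SE 0.26) and for GAMT, the last enzyme of creatine synthesis (−0.82, SE 0.25). NXPE3 measured 6.98, 6.88 and 6.75 against 5.26, 6.45 and 6.34. Control replicate 1 was the lowest array, and without it the difference was 0.47. The other 3 probe sets of NXPE3 differed by 0.38, −0.07 and −0.19. GAMT measured 5.03, 6.02 and 6.08 against 6.50, 6.51 and 6.58, with oligomeric replicate 1 the lowest, and without that array the difference was −0.48. The other 2 probe sets of GAMT differed by −0.00 and 0.20. HOXD4, SLC35H1, SETD1B and YPEL1, described above, were also among them. The others with the higher mean were SLC67A1 (0.64), ADPRM (0.57), RCBTB2 (0.51) and DGLUCY (0.48). Those with the lower mean were POMT2, a protein O-mannosyltransferase (−0.66), and PYGO2, a cofactor of β-catenin (−0.58). Since the level was asked of the higher group alone, GAMT, YPEL1, SLC67A1, DGLUCY, POMT2 and PYGO2 entered at a level under log2 6 in their lower group. The second probe set of ADPRM differed by 0.07 and that of DGLUCY by −0.83, and averaging the probe sets turned the sign of DGLUCY (−0.17).

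A single probe set outside the gene table passed its test. Probe sets above the filter with several gene symbols or none, 5178 in all, were tested apart, and 1 was called (0.0193%) while 206 had an unadjusted p under 0.05. Probe set 217714_x_at, which the annotation pairs with 2 symbols and which is therefore not named by gene, measured 7.08, 7.08 and 7.12 with oligomers and 5.13, 4.05 and 5.17 in the controls. The oligomeric arrays were nearly equal, the controls spread over more than a log2 unit, and the groups lay far apart. The difference was 2.31 (SE 0.26, 95% interval 1.76 to 2.86; limma adjusted p = 0.00247, or 0.0157 when tested together with the genes). It was called in all 6 fits that left out 1 array, with adjusted p up to 0.0382. At 24 h the same probe set measured 6.19, 6.12 and 3.54 with fibrils and 4.70, 6.93 and 7.38 in the controls, so both 24 h groups spread over a range that covers the 6 h difference.

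The genes of Aβ production showed small differences. APP measured 10.82, 10.79 and 10.84 with oligomers and 10.69, 10.61 and 10.75 in the controls. The groups did not overlap, with oligomeric replicate 2 the closest to the controls. The difference was 0.13 (SE 0.07, 95% interval −0.02 to 0.28), and the other 2 probe sets of APP gave 0.08 and −0.06. BACE1 differed by 0.17 (95% interval −0.08 to 0.42), with overlapping groups and the opposite sign in its other 3 probe sets. APH1A, a γ-secretase subunit, differed by 0.13 with groups apart, and RTN3, a membrane protein that binds BACE1, by −0.15 with overlap. Over the 23 tested genes of precursor processing 12 means were higher and 11 lower, the median was 0.016, and 21 intervals lay within a 1.5-fold change.

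Genes that bind or degrade Aβ were tested for 23 members, with a median of 0.000. APOE, the lipid carrier, measured 4.58, 5.31 and 4.69 against 1.98, 3.96 and 4.64. Its control mean lay below the filter level and the groups overlapped, so no size is given. The degrading protease IDE differed by −0.11. PRNP, the prion protein and a binding partner of oligomers, differed by 0.08 (95% interval −0.23 to 0.39).

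Tau, microtubule and synaptic genes had medians near 0. MAPT measured 6.15, 6.40 and 5.68 against 5.70, 5.88 and 5.72. Oligomeric replicates 1 and 2 lay above the controls and replicate 3 below them, and the difference was 0.31 (95% interval −0.13 to 0.75). A MAPT probe set with the same control mean of 5.76 differed by −0.21. The others above the filter differed by 0.32 and 0.38, all with overlapping groups. Of 35 tau, microtubule and tau kinase genes 0 had an unadjusted p under 0.05, and the median was −0.003. The medians were −0.04 for 24 genes of synaptic vesicles, −0.006 for 23 of the postsynapse and −0.03 for 26 of calcium transport, and 0 of these 73 reached an unadjusted p under 0.05. Of 26 neurofilament and growth cone genes, NCAM1, a neural adhesion molecule, was the single one that did, with −0.17 (95% interval −0.33 to −0.02). Of its other 3 probe sets above the filter, 1 with a similar signal differed by 0.05 with overlapping groups. The others differed by −0.19 and −0.55 at lower signals.

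Immediate early genes, the transcription factors switched on within minutes to hours of a stimulus, had a median difference of −0.02. FOS measured 4.84, 4.50 and 4.87 against 4.57, 3.96 and 5.01, with overlapping groups and a difference of 0.22 (95% interval −0.47 to 0.91). EGR1 measured 9.44, 8.90 and 8.84 against 8.85, 9.12 and 9.18, and its mean differed by 0.01 (95% interval −0.30 to 0.32), with oligomeric replicate 1 the highest array. Of 25 genes of this list 0 reached an unadjusted p under 0.05. The list means per array were 0.15, −0.03 and −0.16 in oligomeric replicates 1, 2 and 3, so the replicates differed more from each other than the group did from the controls. The 18 feedback genes of the ERK pathway had a median of −0.01.

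DDIT3, the stress-induced transcription factor CHOP, had the lower mean with oligomers. It measured 5.62, 5.26 and 5.44 against 5.69, 6.05 and 6.23, a difference of −0.55 (SE 0.20, 95% interval −0.99 to −0.11). The groups did not overlap, but oligomeric replicate 1 and control replicate 1 lay within 0.1 of each other. ATF4, the factor that drives DDIT3, differed by 0.05 (95% interval −0.15 to 0.25), and HSPA5, the main chaperone of the endoplasmic reticulum, by 0.04 (95% interval −0.13 to 0.21). CTH, an enzyme of cysteine synthesis and also an ATF4 target, had the higher mean (0.38, 95% interval 0.10 to 0.67), so the 2 genes of the ATF4 list with an unadjusted p under 0.05 had opposite signs. The median of the 35 ATF4 genes was 0.02 and that of the 36 unfolded protein response genes −0.02, with 35 of the latter bounded within a 1.5-fold change.

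**Figure D3:**
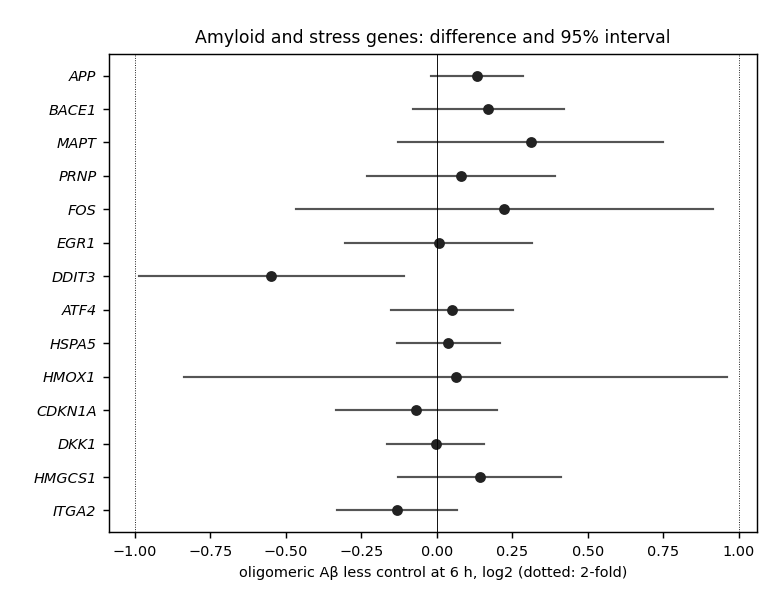
Difference of oligomeric Aβ less control at 6 h with its 95% confidence interval (horizontal axis, log2) for amyloid and stress genes; n = 3 arrays per group and dotted lines mark 2-fold. The interval of DDIT3 lies below 0 and the other 13 include 0, and those of HMOX1 and FOS are wide because their levels are low.

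Oxidative and heat stress genes were also near 0. HMOX1, haem oxygenase and a target of the antioxidant factor NRF2, was dim and differed by 0.06 with a wide interval of −0.84 to 0.96. Among the 36 NRF2 and antioxidant genes, the glutathione enzymes GPX8 (−0.38, 95% interval −0.66 to −0.10) and GSTP1 (−0.23, 95% interval −0.44 to −0.03) had a lower mean with groups apart, and the median was −0.008. The second probe set of GPX8 differed by −0.01 with overlapping groups. The 30 heat shock genes had a median of 0.04, the 20 metallothionein and zinc transport genes −0.003. PDK1, a kinase that inhibits pyruvate dehydrogenase (0.31), and HK2, hexokinase (0.26), had the higher mean among 38 hypoxia and glycolysis genes. Both had overlapping groups, and the median of the 38 genes was 0.02. The other 2 probe sets of HK2 differed by −0.25 and 0.24.

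Mitochondrial, ribosomal and cell division genes had group means mostly of one sign, at small differences. Of 56 respiratory chain subunits 42 had a lower mean, with a median of −0.02, and their list means were −0.14, −0.00 and 0.04 in the oligomeric arrays. Of 53 ribosomal protein genes 43 had a higher mean, with a median of 0.03. Their list mean was 0.22 in oligomeric replicate 3 against 0.01 and −0.03 in oligomeric replicates 1 and 2. These means rest in part on RPLP2 and RPL36A, whose control means of 3.53 and 3.61 lay below the filter level of log2 3.78. Of 49 mitosis genes 36 had a lower mean, with a median of −0.03, at list means of −0.13, 0.13 and −0.10 against 0.00, 0.11 and −0.11 in the controls. In each of these lists the oligomeric arrays overlapped the controls. The sign of the list median changed in 1, 3 and 4 of 18 alternative settings for the respiratory, ribosomal and mitosis genes. Over all genes 5707 of 11805 means were higher (48.3%). Every one of the 56 respiratory and 49 mitosis genes was bounded within a 1.5-fold change.

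Survival, cell cycle and signalling genes gave few low p-values. CDKN1A, the p53 target that halts the cell cycle, differed by −0.07 (95% interval −0.34 to 0.20). Of 28 p53 targets, 2 with a higher and 1 with a lower mean had an unadjusted p under 0.05, beside 2.85% of all genes. PLK2, a stress-induced kinase, had the lower mean (−0.25), and MDM4, an inhibitor of p53 (0.21), and TP53INP1 (0.31) the higher ones. MDM4 was read from an _x_at probe set with overlapping groups, and a probe set of similar signal differed by −0.07. Its remaining probe sets above the filter ran from −0.32 to 0.38. The 31 genes of the BCL2 family and cell death had a median of −0.008 and 0 with an unadjusted p under 0.05. ICAM1, an adhesion molecule at a low level here, was the single one of 27 NF-κB and inflammation genes to reach it (0.75, 95% interval 0.06 to 1.43). DKK1, a WNT inhibitor that Aβ is known to induce in neurons, measured 12.60, 12.59 and 12.59 against 12.53, 12.72 and 12.55. Its groups overlapped, and its 95% interval was −0.17 to 0.16.

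Genes of lipid synthesis and of the noradrenergic programme completed the lists. HMGCS1, an enzyme of cholesterol synthesis, differed by 0.14 (95% interval −0.13 to 0.41), and 0 of 27 genes of that pathway had an unadjusted p under 0.05. Besides DBH, the 24 catecholamine genes held PNMT, which makes adrenaline, with an oligomeric mean of 3.21, below the filter level, against 4.83 and with overlapping groups, and the noradrenaline transporter SLC6A2 (0.11, groups apart). Their median was 0.05. Of the 8 acetylcholine receptor and transport genes tested 7 had a higher mean, with the largest median of any list, 0.13, and 4 of their intervals lay within a 1.5-fold change. CHRNA3, the brightest, differed by 0.07 (95% interval −0.07 to 0.22).

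Across all 39 lists, which share some genes, the medians ran from −0.06 to 0.13. The lists held 1134 different genes tested, of which 27 (2.38%) had an unadjusted p under 0.05, 14 higher and 13 lower, beside 2.85% of all genes. The groups did not overlap for 62 of them (5.47%), beside 7.37% of all genes. The list means per array overlapped between the groups for 36 lists and did not for 3 (7.69%), a share near the 7.37% of all genes. Those for Aβ binding and breakdown were 0.10, 0.08 and 0.10 with oligomers and −0.13, 0.06 and 0.06 in the controls. Those for acetylcholine receptors and transport were 0.16, 0.31 and 0.10 against 0.04, −0.09 and 0.05, and those for calcium transport −0.03, −0.13 and −0.04 against −0.02, −0.01 and 0.03. With 23, 8 and 26 genes, these means rest in part on dim members such as APOE, CHRNA9 (0.55) and SLC8B1, a mitochondrial calcium exchanger whose oligomeric mean of 3.22 lay below the filter level. ARC, an activity-induced gene, lay below the filter, and HSPA1A was not analysed here.

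**Figure D4:**
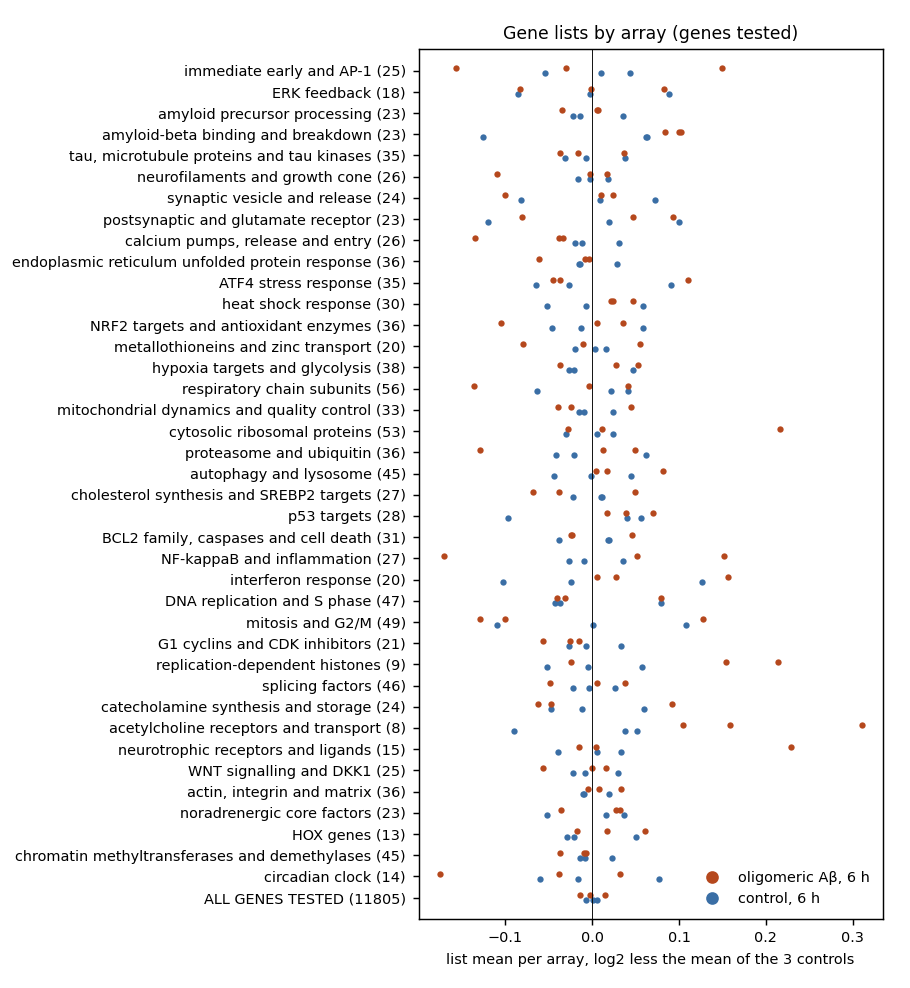
Mean log2 signal of each gene list on each array less the mean of the 3 controls (horizontal axis); orange points are oligomeric arrays, blue points controls, and the number of genes tested stands beside each list. The colours overlap in 36 of the 39 lists; oligomeric replicate 3 stands out at 0.22 for ribosomal proteins, and the list mean over all 11805 genes lies near 0 on every array.

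The 6 arrays did not separate by treatment. Correlations over genes were 0.981 to 0.986 within the groups and 0.982 to 0.985 between them, and the first 3 principal components, with 24.1%, 23.1% and 18.5% of the variance, mixed the groups. The 18S ribosomal RNA probe set was higher by 0.67 with overlapping groups, and control replicate 1 had labelling spike-ins at 5.44 against 6.43 to 6.77 on the other arrays. All 6 array measures had a two-sided exact permutation p of at least 0.2, where 0.1 is the smallest that 3 against 3 allow. Of the 17 noradrenergic neuroblastoma markers measured, 15 were at or above log2 6. The others, INSM1 and TH, the first enzyme of catecholamine synthesis, lay below the filter, as did SLC18A2, the transporter that stores catecholamines in vesicles. Of the epithelial, blood and endothelial, glial and microglial markers 0 were at or above log2 6. Of 20 mesenchymal markers 14 were, with VIM at 13.2. CD44 lay under that level at 5.44, and PRRX1, TWIST2, FOSL1 and AXL lay below the filter. The part of these array measures in the differences was not tested.

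The 24 h groups share no array with these 6. Their comparison came from a limma fit to all 12 arrays, on the probe sets chosen at 6 h. The spread of the 6 h arrays entered its error, unlike the 6 h fit, which used 6 arrays alone. With fibrils 145 of the same 11805 genes (1.23%) passed the limma test, 97 higher and 48 lower. The 6 h comparison taken from all 12 arrays called 0 genes. At 6 h those 97 genes had a median difference of −0.02, with 41 means higher and 56 lower, and the 48 a median of 0.01, with 25 higher and 23 lower. An unadjusted p under 0.05 at 6 h was reached by 4 of the 97 and 4 of the 48, beside 2.85% of all genes. Of those 4 among the 97, 1 was higher and 3 were lower at 6 h. Of the 4 among the 48, 4 were higher and 0 lower. The groups did not overlap for 10 of the 97, 4 higher and 6 lower. For the 48 it was 9, 8 higher and 1 lower, beside 7.37% of all genes. The 6 h interval left out the 24 h value for all 97 and all 48, though these genes were chosen for their 24 h values. FOS differed by 2.49 at 24 h and by 0.22 at 6 h, HMGCS1 by 1.36 and 0.14, and DDIT3 by 0.95 and −0.55.

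**Figure D5:**
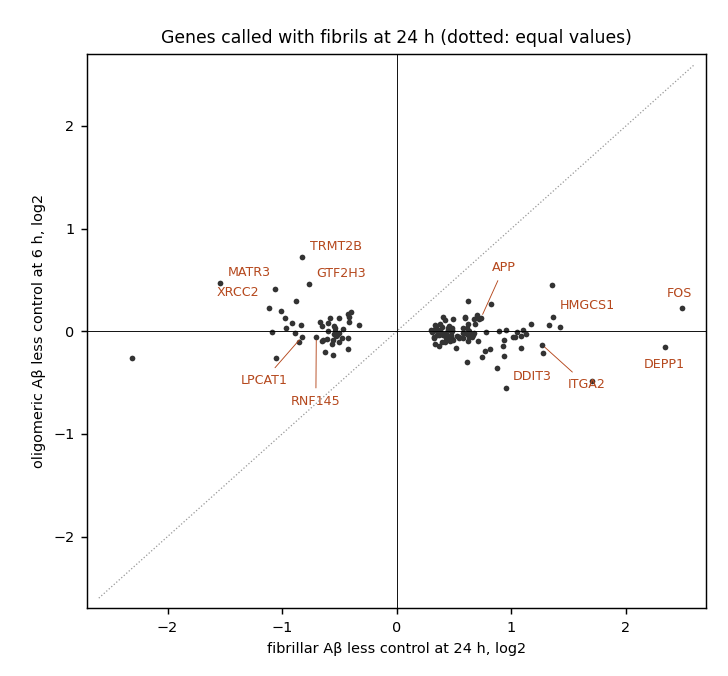
Difference at 6 h with oligomers (vertical axis, log2) against the difference at 24 h with fibrils (horizontal axis, log2) for the 145 genes called at 24 h, each against its own controls; the dotted line marks equal values. The points lie along 0 on the vertical axis rather than along the dotted line, and TRMT2B, MATR3, GTF2H3 and XRCC2 lie above 0 at 6 h and below 0 at 24 h.

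The test of the difference of the responses called 5 of 11805 genes (0.0424%), and 1020 (8.64%) had an unadjusted p under 0.05. For 4 of the 5 the 6 h interval included 0, with 24 h differences of −0.70 for RNF145, −0.83 for LPCAT1, −0.97 for SPDYE2 and 1.27 for ITGA2. RNF145, a ubiquitin ligase of sterol regulation, measured 10.53, 10.51 and 10.51 with oligomers and 10.61, 10.51 and 10.58 in the controls. The groups nearly coincided, at a difference of −0.05 (95% interval −0.20 to 0.10), and the responses differed by 0.65 (SE 0.09, limma adjusted p = 0.0211). LPCAT1, a phospholipid acyltransferase, differed by −0.06 at 6 h, SPDYE2 by 0.13 and ITGA2, the α2 chain of a collagen receptor, by −0.13, with responses apart by 0.77, 1.11 and −1.40 (limma adjusted p = 0.0353 for each). The second probe set of ITGA2 had a 6 h difference of 0.53.

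GTF2H3 was the called gene whose 6 h interval left out 0. Its mean was higher with oligomers at 6 h, and it measured 9.24, 8.78 and 8.59 with fibrils against 9.51, 9.69 and 9.70 in the 24 h controls. The 24 h arrays with fibrils lay below all their controls, replicate 3 lowest, and the responses differed by 1.22 (SE 0.18, limma adjusted p = 0.0211). MATR3, XRCC2 and TRMT2B had the same pair of signs, with 24 h differences of −1.54, −1.07 and −0.82 (limma adjusted p = 0.033, 0.028 and 0.049). Their responses were not called apart (limma adjusted p = 0.13, 0.094 and 0.053). For these genes the fibrillar replicates were uneven, with MATR3 at 7.07, 5.79 and 5.03 against 7.62, 7.65 and 7.23 in the controls. Of the 12 genes with the lowest p and a higher mean at 6 h, 3 had a higher mean at 24 h. Of the 149 with an unadjusted p under 0.05 it was 69 (46.3%), beside 49.8% of all genes.

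The calls of these 5 differences of responses depended on the arrays used. Over all settings run, RNF145 differed by 0.51 to 0.71, LPCAT1 by 0.63 to 0.83, SPDYE2 by 0.96 to 1.24 and ITGA2 by −1.66 to −1.01. GTF2H3 ranged from 0.54, with its probe sets averaged (limma adjusted p = 0.347), to 1.41. When single arrays were left out in turn, each was called in 2 or 3 of 12 fits, and the count of called genes ran from 0 to 67. Leaving out fibrillar replicate 2 gave the 67 and fibrillar replicate 1 gave 30. Leaving out any array of the oligomeric group, or control replicate 2 or 3 of 6 h, gave 0.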

How the data were processed

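RNA of SH-SY5Y cells was measured on 12 arrays of 54675 probe sets, of which 6 form the comparison described. The deposited values are log2 signals made by the authors with MAS5, as the submitters' processing notes name it without a version. Every array had the same trimmed mean signal (2% to 98%), 100, and no further normalization was applied. Of the probe sets 41091 carried 1 symbol, 1801 several, 11721 none, and 62 were controls. For 5837 genes more than 1 probe set was kept.

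A group-means model was fitted to the 6 arrays alone with limma 3.58.1 in R 4.3.3 (trended prior variance, values read with data.table, version 1.17.8). The 24 h comparison and the difference of responses used all 12 arrays. Calls required a Benjamini-Hochberg adjusted p under 0.05, and the procedure was tested on simulated data. Named genes were the 12 in each direction with the lowest p, the 6 in each direction with the largest difference among groups apart, up to 5 in each direction for the difference of responses and for the fibril calls, up to 3 by p and 3 by level in each list, and a fixed set of amyloid and stress genes. The members and lists were chosen with earlier results of these data known. The correlations of deviations between arrays with the same replicate number were 0.02, 0.09 and −0.02, and replicate numbers were therefore not treated as pairs. Alternatives changed the scaling, filter, probe set choice, prior variance and arrays used. Genes were identified by symbol, with no genome positions.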

Additional observations from a re-analysis of the deposited data

Results flagged for a closer look

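Probe set 217714_x_at, which carries 2 gene symbols and lies outside the gene table, was above the controls by 2.31 on the log2 scale (SE 0.26, limma adjusted p = 0.00247). The next lowest adjusted p among the 5178 probe sets with several or no symbols was 0.11.

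The oligomeric and fibrillar responses, each against its own controls, differed by a test of the difference itself for 5 genes. RNF145 differed by 0.65 and GTF2H3 by 1.22 (limma adjusted p = 0.0211 for both). With the probe sets of a gene averaged, GTF2H3 differed by 0.54 (limma adjusted p = 0.347). LPCAT1 differed by 0.77, SPDYE2 by 1.11 and ITGA2 by −1.40 (limma adjusted p = 0.0353 for each). Peptide form and hours cannot be told apart in these differences.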

How the results depend on the processing

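The count of genes called at 6 h was 0 under every alternative but 1, and 0 to 0 when single arrays were left out. Centring each array on its median called 2 genes, SETD1B and SLC35H1 (limma adjusted p = 0.0408 for both). Centring moved the median difference of all genes to −0.07 and the split of genes with an unadjusted p under 0.05 from 149 higher and 188 lower to 73 and 360. Over the settings run, the count with an unadjusted p under 0.05 ranged from 182 to 757. The 182 were among 7755 genes kept by a stricter filter, set to the 75th percentile. The 757 were among 22129 probe sets, each tested singly, beside 337 of 11805 genes in the main fit. These counts therefore differ in part because the number tested differs. The replicate number as a block gave 0 called genes at 6 h and 3 for the difference of responses.

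The count for the difference of responses was 5, against 22 with median centring, 8 with log2 of the signal plus 16, 3 with the probe sets of a gene averaged, 3 with every probe set, 0 with a constant prior variance and 27 with array quality weights. Leaving out each array in turn gave 0 to 67. The cause was not tested.

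Of 58 named genes 42 kept the sign of their 6 h difference in every setting run, and 39 of 1016 values changed sign. The 58 include the genes picked on these same arrays for the lowest p or the largest difference, a choice that itself favours a stable sign. Of the genes so picked, DGLUCY alone changed sign, to −0.17 with its probe sets averaged. Every other change fell on genes named for other reasons. The pooled count of 42 is therefore no measure of robustness. Of 39 list medians 35 changed sign in at least 1 setting. With 3 arrays a group, 72.7% of the genes below log2 6 had an interval within 2-fold. The test of probe sets without a single symbol was chosen after the data were seen.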
